A study of Drosophila melanogaster with 8 samples.

Results

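A small group of transcripts was recovered on anti-HA beads from Drosophila testes whether or not the tagged protein was there. In each of 4 pairs of libraries, the TPM of a transcript in the pull-down was divided by its TPM in the input. TPM is a level corrected for transcript length and scaled to a fixed total in each library. The log2 of this ratio was centred on the median of all eligible transcripts of that pair, so that 0 is the middle transcript and 1 is a ratio 2-fold above it. Eligible transcripts were longer than 300 nt and shorter than 10000 nt, had at least 20 estimated reads in all 8 libraries, and were not among the 200 most abundant in the inputs. Transcripts with a centred log2 ratio of at least 1 in all 4 pairs were taken as retained. There were 309 of them, which is 2.35% of 13172 eligible transcripts and part of 30070 annotated rows. Because the ratios themselves chose these transcripts, their ratios are described here without a test.

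The libraries came from testes of 2 lines. In the HOW(S)-HA line, of genotype UAS-HOW-S-HA/nanos-GAL4, the nanos-GAL4 driver expressed an HA-tagged short isoform of the RNA-binding protein HOW in germline stem cells and early spermatogonia. The nanos-GAL4 parent line, nanos-GAL4/nanos-GAL4, carried the driver without the tagged protein, so both lines carried the driver, in 1 copy or in 2 copies. For the HOW(S)-HA line, 3 inputs and 3 pull-downs were sequenced, and for the parent line 1 input and 1 pull-down, so values without HOW(S)-HA have no replicate. Lysates were made from pooled whole testes of males 0 to 3 days old, mated and unmated, in which the driver is active only in the early germline. The 8 libraries held 9.13 M to 24.0 M estimated reads, with the fewest in HOW(S)-HA input 1. No member and few other transcripts are paired with a gene name in the tables used here, so gene groups and markers of testis cell types could not be evaluated, and transcripts are identified by length, level or identifier.

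RNA immunoprecipitation recovers RNA through a protein held on antibody beads, and the input is the lysate from which it was taken. RNA can also reach the beads by other routes, such as contact with the bead surface, with the antibody or with other proteins held there. A pull-down from cells that lack the tag measures this second class, and it is the usual reference against which binding by the tagged protein is read. HOW is a STAR-domain RNA-binding protein, orthologous to mammalian QKI, that acts in splicing, mRNA stability and translation, and it is required in the male germline.

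All 4 pairs showed the retained transcripts well above the middle of their own pair. In HOW(S)-HA pairs 1, 2 and 3 their median centred log2 ratio was 2.04, 1.89 and 1.52, and in the nanos-GAL4 pair it was 1.96. These are 4.11-fold, 3.72-fold, 2.88-fold and 3.90-fold above the middle transcript, respectively. The median without the tagged protein therefore lay between those of HOW(S)-HA pairs 1 and 2, inside the range of the line that carries it. HOW(S)-HA pair 3 stood apart as the pair with the smallest ratios, and it was the lowest pair for 175 of the 309 transcripts. The ratios of all eligible transcripts also had their smallest spread in this pair, with an SD of 0.58 against 0.73 to 0.90 in the other pairs. Measured in these SDs, the median of the retained transcripts was 2.27, 2.48 and 2.63 in HOW(S)-HA pairs 1 to 3 and 2.68 in the nanos-GAL4 pair.

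**Figure D1:**
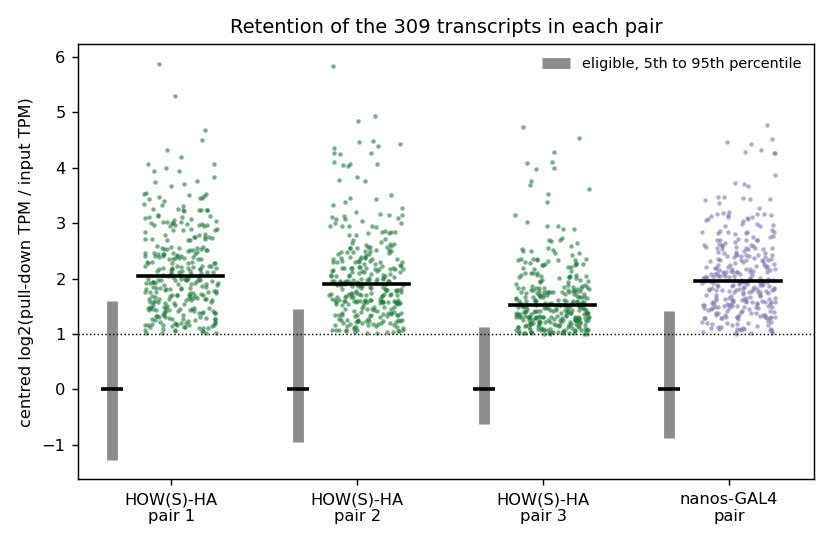
Centred log2 ratio of pull-down TPM to input TPM (vertical axis) in each of the 4 pairs (horizontal axis). Each coloured point is 1 of the 309 retained transcripts, black lines are their medians, grey bars span the 5th to 95th percentile of the 13172 eligible transcripts, and the dotted line marks the threshold of 1; the points of HOW(S)-HA pair 3 lie lowest, with a median of 1.52.

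A ratio of 1 or more was reached by 12.0%, 10.2% and 6.36% of eligible transcripts in HOW(S)-HA pairs 1, 2 and 3, and by 9.86% in the nanos-GAL4 pair. It was reached in no pair by 10427 eligible transcripts, in exactly 1 pair by 1428, in 2 pairs by 630 and in 3 pairs by 378. Of the 363 transcripts at 1 or more in all HOW(S)-HA pairs, 309 (85.1%) were also at 1 or more without HOW(S)-HA. The 54 others had a median of 0.62 in the nanos-GAL4 pair, and 42 of them were above 0 there. Conversely, 23.8% of the 1299 transcripts at 1 or more in the nanos-GAL4 pair were so in all HOW(S)-HA pairs.

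Each pair was also read after choosing transcripts by the other 3 pairs alone, within the same eligible set. The 363 transcripts chosen by HOW(S)-HA alone had a median of 1.82 in the nanos-GAL4 pair, a 3.53-fold ratio, and 351 of them were above 0. The 405 transcripts chosen without HOW(S)-HA pair 1 had a median of 1.72 in that pair, and the 336 chosen without pair 2 had a median of 1.81 in pair 2. The 510 chosen without pair 3 had a median of 1.18 in pair 3, where 60.6% of them reached 1. The share that reached 1 in the left-out pair was 76.3% for HOW(S)-HA pair 1, 92.0% for pair 2 and 85.1% for nanos-GAL4. In each case the transcripts that reached 1 are the same 309 members, so these shares restate the rule and do not compare the lines.

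As a share of all transcripts, the retained set was small in every input and several-fold larger in every pull-down. In the HOW(S)-HA inputs the members together made up 0.179%, 0.282% and 0.282% of total TPM, and in the corresponding pull-downs 1.61%, 1.88% and 1.02%. In nanos-GAL4 they made up 0.327% before and 2.12% after pull-down. The share in the pull-down was therefore 8.99-fold, 6.68-fold and 3.61-fold that in the input with HOW(S)-HA and 6.48-fold without it. Of estimated reads, which are not corrected for length, members took between 1.38% and 1.76% in inputs and between 4.79% and 5.53% in pull-downs. The uncorrected median of eligible transcripts was itself above 0 in all pairs, at 1.17, 0.73 and 0.26 with HOW(S)-HA and 0.68 without, and centring removes this shift. Across libraries, the lowest of the 4 pull-down levels was above the highest of the 4 input levels for 307 of the 309 members. This held for 35.4% of eligible transcripts. Members were chosen by a high ratio in every pair, so this contrast follows in large part from the rule.

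The most retained transcript was FBtr0344972, a transcript of 1078 nt whose gene is not named in the tables used here. Its level in HOW(S)-HA inputs 1, 2 and 3 was 5.14, 3.99 and 6.04 TPM, and in the pull-downs 212, 377 and 193 TPM. Without HOW(S)-HA its input level was 7.78 TPM and its pull-down level 239 TPM. All 4 pull-downs were far above all 4 inputs, and the nanos-GAL4 pull-down lay between those of the other line, while its input was the highest of the 4. Its centred log2 ratios were 4.19, 5.83 and 4.73 with HOW(S)-HA (mean 4.92 ± 0.84 SD, n = 3) and 4.26 without, an average of 27.0-fold over the 4 pairs. In edgeR's fit of all 8 libraries, the difference of its log2(fold change) between lines was 0.67 with an SE of 0.62 and an FDR-corrected p value of 1.00.

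The second, FBtr0078666, of 2426 nt, was less abundant but more even between pairs. It was at 0.95, 0.90 and 1.06 TPM in the HOW(S)-HA inputs and at 36.2, 42.8 and 24.9 TPM in the pull-downs. Its nanos-GAL4 input held 1.44 TPM and the matching pull-down 44.8 TPM, the highest of the 4 pull-downs. The ratios were 4.08, 4.85 and 4.29 with HOW(S)-HA and 4.28 without, or 20.7-fold on average. These levels rest on 70.9 to 149 estimated reads per input and 2556 to 3554 per pull-down.

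The 10 most retained transcripts, taken by their mean over the 4 pairs, ranged from 1078 to 6746 nt and from 12.6-fold to 27.0-fold. Their mean input level was between 0.24 and 5.74 TPM, the most retained one being the only one above the eligible median of 4.34 TPM. For 5 of the 10 the nanos-GAL4 ratio was above the HOW(S)-HA mean, and for 5 below it. One of them, a transcript of 6746 nt, was very uneven, with ratios of 5.29, 4.47 and 2.49 with HOW(S)-HA and 3.88 without.

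**Figure D2:**
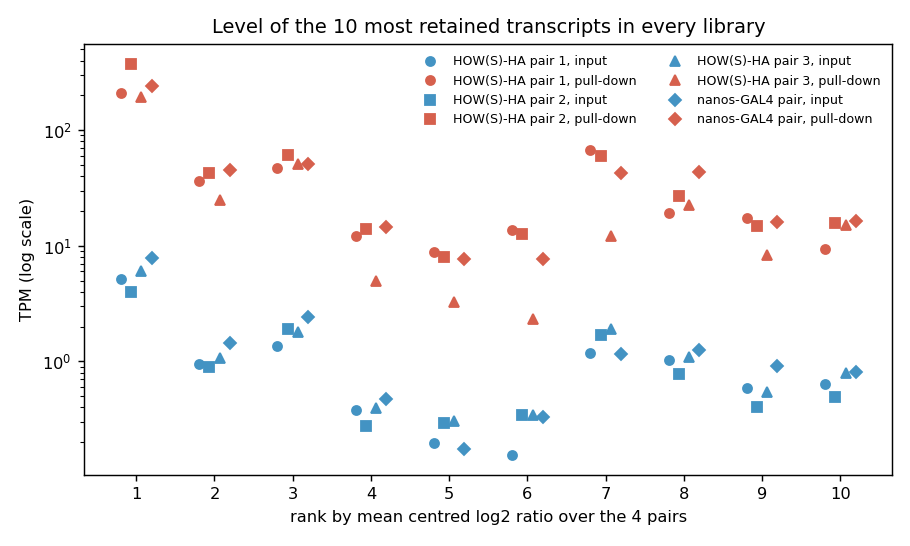
TPM on a log scale (vertical axis) of the 10 most retained transcripts, ordered by their mean centred log2 ratio (horizontal axis). Blue symbols are inputs, red symbols pull-downs, and the symbol shape gives the pair; for every one of the 10 all pull-downs lie above all inputs, and the nanos-GAL4 symbols (diamonds) lie among or close to those of HOW(S)-HA.

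Most members were retained more moderately. By the mean of the 3 HOW(S)-HA pairs, 188 were between 1 and 2 on the log2 scale, 100 between 2 and 3, 16 between 3 and 4 and 5 at 4 or above. In the nanos-GAL4 pair the corresponding numbers were 162, 112, 27 and 8. At the lower edge, the 3 members with the smallest lowest ratio and the 3 eligible transcripts just outside all had a lowest ratio that rounds to 1.00. For 5 of these 6 transcripts that lowest value came from HOW(S)-HA pair 3. Of the 309 members, 205 had a 95% counting interval above 1 in all pairs, and all 309 had one above 0 (intervals cover counting error only). Among the 13172 eligible transcripts, 1971 had an interval above 0 in all pairs. Members had to reach 1 in every pair, so these counts follow in part from the rule. The largest counting SE over the pairs had a median of 0.143 for members and 0.137 for eligible transcripts, so it was not smaller for members. The remaining members are within counting error of the threshold in at least 1 pair.

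Of the 54 transcripts named in the sources, 30 were eligible and none passed the threshold. Most lay well below it. Some came close to it or exceeded it in some pairs, and not all of these are given. Dyrk3 had ratios of 0.36, 1.46 and 1.61 with HOW(S)-HA and 1.55 without. EIF3c-RB had 0.16, 0.56 and 0.68 with HOW(S)-HA and 1.81 without. Cdk12-RA had -0.50, 0.17 and 0.19 with HOW(S)-HA and 2.45 without. How-RC, a transcript of the gene whose product was tagged, had ratios of 1.38, 1.37 and 1.14 with HOW(S)-HA and 0.91 without. Its level in the inputs was 0.90, 1.32 and 1.31 TPM in the HOW(S)-HA line and 1.27 TPM in nanos-GAL4, so the inputs of the lines were not told apart by How-RC. The paper assigns the short isoform, which was the one tagged, to a different transcript, How-RB. How-RB had ratios of 3.91, 2.36 and 1.76 with HOW(S)-HA and 0.63 without, but only between 23.6 and 74.3 estimated reads in the inputs. Its input level was 0.46, 0.84 and 0.54 TPM in the HOW(S)-HA line and 1.02 TPM in nanos-GAL4. The nanos-GAL4 input was thus above all HOW(S)-HA inputs for How-RB. Jvl-RF, of 6493 nt, had ratios of 1.29, 1.05 and 0.84 with HOW(S)-HA and 1.07 without. Jvl encodes a microtubule-associated protein. It fell outside the retained set through HOW(S)-HA pair 3 alone.

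Retained transcripts were long. Their median annotated length was 3104 nt (quartiles 2070 and 4895 nt, range 310 to 9886 nt), against 1892 nt for all eligible transcripts (quartiles 1155 and 3103 nt). Length was used in the rule only as outer limits, and 242 of the 309 (78.3%) were longer than the eligible median. Transcripts of at least 3000 nt made up 52.1% of members and 26.5% of eligible transcripts, and those of at least 6000 nt 17.5% and 4.81%. Only 16 members (5.18%) were shorter than 1000 nt, against 19.2% of eligible transcripts. The retained share rose with every step in length, from 0.632% of transcripts under 1000 nt through 1.31%, 2.73%, 3.70% and 3.79% to 8.53% of those of 6000 nt or more.

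Both lines showed this rise separately. In the shortest class 2.45%, 2.61% and 1.97% of transcripts reached a ratio of 1 in HOW(S)-HA pairs 1, 2 and 3, and 2.09% did so without HOW(S)-HA. In the longest class these shares were 40.9%, 33.2% and 22.0% with HOW(S)-HA and 33.6% without. Over the 13172 eligible transcripts, length and ratio had a Spearman's rho of 0.51 for the HOW(S)-HA mean and 0.47 for the nanos-GAL4 pair. These are descriptions across transcripts of the same libraries, which are not independent replicates. Among the 309 members alone rho was 0.03 and -0.06. The rule cut these members off by the same ratios, which narrows their range. These 2 values therefore cannot show whether the relation to length differs inside the retained set. The longest members, of 9366, 9552 and 9886 nt, had mean ratios of 2.43-fold, 2.76-fold and 3.92-fold.

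**Figure D3:**
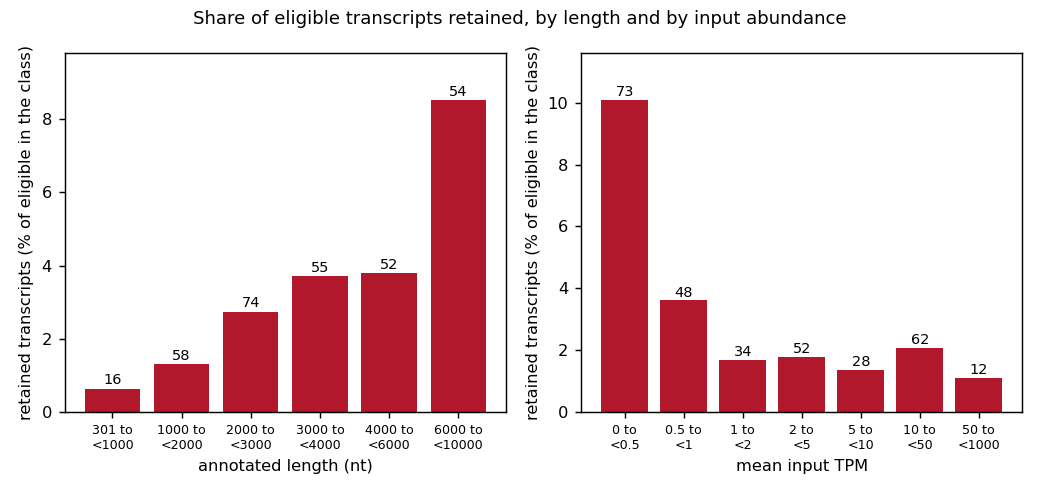
Retained transcripts as a percentage of eligible transcripts (vertical axes) in classes of annotated length in nt (left) and of mean input TPM (right). Numbers above the bars count retained transcripts; the share rises from 0.632% to 8.53% with length, and it is highest, at 10.1%, in the class with the lowest input level.

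The 3 shortest members did not resemble each other. The shortest, of 310 nt, was also the most abundant member in the inputs, at 103, 143 and 125 TPM with HOW(S)-HA and 101 TPM without. Its pull-down level was 1146, 3936 and 437 TPM with HOW(S)-HA and 1448 TPM without. The inputs were thus close to each other and the pull-downs 9.01-fold apart, with the nanos-GAL4 value in between. The next shortest, of 556 nt, was barely above the threshold, with ratios of 1.12, 1.12 and 1.01 with HOW(S)-HA and 1.51 without. A transcript of 610 nt had ratios of 3.24, 3.14 and 1.67 with HOW(S)-HA and 2.98 without.

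Retained transcripts were scarce in the inputs. Their median mean input level was 1.98 TPM (quartiles 0.52 and 9.60 TPM), against 4.34 TPM for eligible transcripts (quartiles 1.57 and 14.3 TPM). In the sets retained without HOW(S)-HA pair 1 or pair 3 the median was 1.14 and 0.964 TPM, against 3.88 and 4.23 TPM for the transcripts then eligible. A level under 1 TPM was found for 39.2% of members and 15.6% of eligible transcripts. The retained share was 10.1% below 0.5 TPM and 3.60% between 0.5 and 1 TPM, and between 1.08% and 2.06% in all classes above. The input level is the denominator of the ratio that chose the members, so this difference is in part set by the rule. By the geometric mean of all 8 libraries, in which input and pull-down weigh equally, members had a median of 4.97 TPM and eligible transcripts one of 5.37 TPM. On that measure 51.5% of members lay below the eligible median, against 65.0% by the inputs, and members covered a wider range (quartiles 1.27 and 23.1 TPM against 2.04 and 17.3 TPM).

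**Figure D4:**
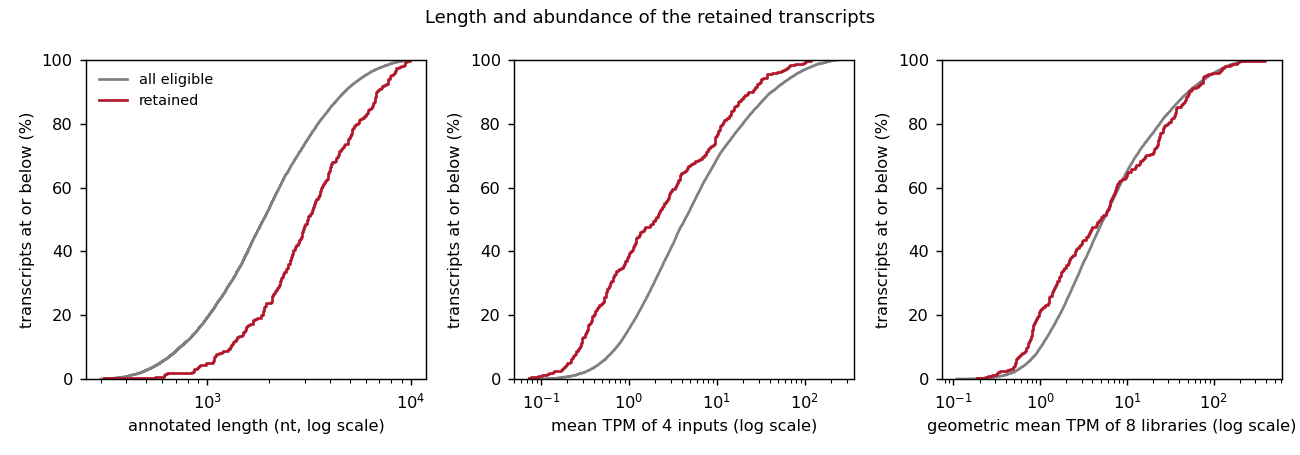
Cumulative percentage of transcripts (vertical axes) by annotated length in nt (left), mean TPM of the 4 inputs (middle) and geometric mean TPM of the 8 libraries (right), all on log scales, for the 309 retained (red) and 13172 eligible transcripts (grey). The red curve lies to the right for length (medians 3104 and 1892 nt), to the left for input level (1.98 and 4.34 TPM), and crosses the grey one for the mean of all libraries (4.97 and 5.37 TPM).

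Length and input level went together, with a Spearman's rho of -0.52 among members and -0.53 among eligible transcripts. The floor of 20 reads corresponds to a lower TPM in a longer transcript, and its part in this relation was not tested. Length was therefore read within classes of input level. Below 1 TPM, the retained share was 2.15% of transcripts under 2000 nt, 4.98% of those from 2000 nt and 8.42% of those from 4000 nt. From 1 to 10 TPM it was 0.980%, 2.01% and 2.86%, and from 10 TPM it was 1.04%, 4.22% and 5.41%. The share rose with length in all 3 classes, the last step of the highest class resting on 8 members. Input level by itself gave no such order, since the middle class from 1 to 10 TPM had the lowest share in all 3 length classes.

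The 8 members with the highest input levels, between 64.2 and 118 TPM, were retained from 2.18-fold to 6.80-fold. The transcript with the deepest support was one of 5259 nt, with at least 6634 estimated reads in every library. It was at 38.7, 64.5 and 71.9 TPM in the HOW(S)-HA inputs and at 455, 390 and 291 TPM in the pull-downs. The nanos-GAL4 input held 81.9 TPM and the matching pull-down 593 TPM, each the highest of its kind. Its ratios were 2.39, 1.87 and 1.75 with HOW(S)-HA and 2.18 without, so the nanos-GAL4 ratio lay within the range of the HOW(S)-HA pairs.

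Read depth and the assignment of reads to isoforms differed between members and other transcripts. Fewer than 50 reads in some library were found for 89 members (28.8%) and for 17.5% of eligible transcripts. The retained share was 3.87% in this lowest class of reads, between 1.65% and 2.29% in the middle classes and 2.37% from 500 reads upwards. Members were longer than eligible transcripts in each of the 5 classes, for example with medians of 2737 and 1812 nt from 500 reads upwards. Only 60 members (19.4%) had whole numbers of reads in all libraries, within a tolerance of 0.0005 reads, against 31.4% of eligible transcripts. Reads of the others had been divided by Salmon among transcripts that share sequence. Among the 60, the median length was 2009 nt against 1433 nt for the eligible transcripts with whole reads. Their median input level was 10.7 TPM against 6.38 TPM, which is the opposite order to that of all members. Their ratios were a median of 3.17-fold with HOW(S)-HA and 3.89-fold without. The part that division of reads had in the result was not tested.

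The size of retention was compared between lines by subtracting the nanos-GAL4 ratio from the mean of the 3 HOW(S)-HA ratios. Over the members this difference had a median of -0.13 (quartiles -0.40 and 0.17, range -1.98 to 2.31), and 198 of 309 were lower with HOW(S)-HA than without. Over all eligible transcripts the median was -0.01. The members' median ratio itself varied over the 3 HOW(S)-HA pairs with an SD of 0.27, which is larger than the shift of 0.13 in size. For single transcripts, the SD over these pairs had a median of 0.39 for members and 0.31 for eligible transcripts. For 178 members (57.6%) the nanos-GAL4 ratio lay within the range of the HOW(S)-HA pairs. For 93 (30.1%) it was above all of them, against 22.8% of eligible transcripts. For 38 (12.3%) it was below all of them, against 20.7% of eligible transcripts. The low ratios of HOW(S)-HA pair 3 moved with this difference, and without that pair the median difference was 0.08 over the 525 transcripts then retained.

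**Figure D5:**
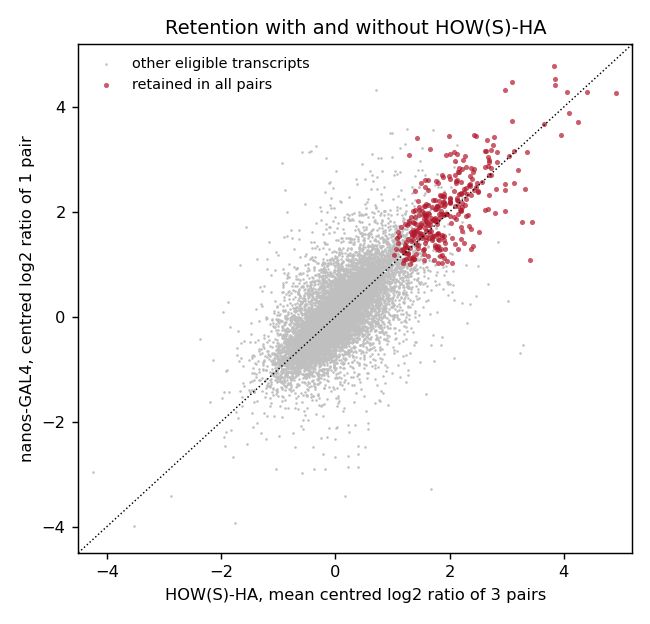
Mean centred log2 ratio of the 3 HOW(S)-HA pairs (horizontal axis) against the ratio of the single nanos-GAL4 pair (vertical axis) for the 309 retained transcripts (red) and all other eligible transcripts (grey). The dotted line marks equal ratios; red points lie on both sides of it, with 111 below the line (higher with HOW(S)-HA) and 198 above it.

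Differences of at least 1 between lines were found for 6 members higher with HOW(S)-HA (1.94%, against 2.68% of eligible transcripts) and 13 higher without (4.21% against 3.33%), so these shares were near those of all eligible transcripts. Their lowest number of reads in any library had a median of 66.8, against 117 for the other members, and 12 of the 19 had fewer than 100. The largest difference in favour of HOW(S)-HA was that of a transcript of 3482 nt, with ratios of 3.04, 3.15 and 4.01 against 1.09 in nanos-GAL4. Its level in the inputs was 0.32, 0.38 and 0.25 TPM with HOW(S)-HA and 0.22 TPM without, and in the pull-downs 5.97, 5.65 and 4.85 TPM against 0.76 TPM. The single nanos-GAL4 pull-down, with 70.0 estimated reads, was below all HOW(S)-HA pull-downs, which held 640 to 739. The inputs held between 34.4 and 72.3 estimated reads. A nanos-GAL4 ratio below all HOW(S)-HA pairs was found for 20.7% of eligible transcripts. In the other direction a transcript of 2968 nt had ratios of 1.45, 1.81 and 1.04 with HOW(S)-HA and 3.41 without, with as few as 20.7 reads in the nanos-GAL4 input. Deeper support was found for a transcript of 3930 nt, with ratios of 1.95, 1.39 and 1.61 with HOW(S)-HA and 3.19 without. Its pull-down level was 17.7, 20.1 and 10.5 TPM with HOW(S)-HA and 33.4 TPM without, from inputs of 2.03, 4.64, 2.88 and 2.28 TPM, in that order.

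The absolute difference was read in the 5 classes of lowest reads, from fewer than 50 to at least 500. Among members its median was 0.37, 0.34, 0.25, 0.28 and 0.28, with no further decrease from 100 reads upwards. Among eligible transcripts it was 0.39, 0.29, 0.24, 0.19 and 0.18. In the deepest class the signed median was -0.24 for members, with ratios of 1.58 with HOW(S)-HA and 1.89 without, and -0.11 for eligible transcripts. In the class of fewest reads it was -0.03 for members.

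The same question was put to the count model. Counts made from TPM were tested with edgeR in the 8 libraries, with the interaction of line and pull-down as the term of interest. Of 12346 transcripts tested, 0% were called at an FDR-corrected p value of 0.05. Of the 201 members tested, the quasi-likelihood F-test called 0, with 1.00 as the smallest FDR-corrected p value among them. Before correction, at p under 0.05, 12 members were lower with HOW(S)-HA and 0 higher, against 1.34% and 1.54% of all transcripts tested. The 12 are 5.97% of the members tested. In edgeR's fit the interaction had a median of -0.17 on the log2 scale among members and -0.02 among all transcripts. Its median SE was 0.37 for members, and it ranged from -1.58 to 1.08 among them. With DESeq2 and limma-voom the median was -0.15 and -0.18 among members, and -0.01 and -0.02 among all transcripts. With 1 pair in a line, differences of this size were not told apart from none at this replication. This contrast is built from the ratios used to choose the members, so these counts describe them.

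The inputs of the lines were compared in the same way, as 3 libraries against 1. Among all 12694 transcripts tested, 0.0158% were called. Of the 198 members tested, 0 were called by edgeR, which gave that share, by DESeq2 or by limma-voom. DESeq2 called 90 of all transcripts higher with HOW(S)-HA and 18 lower, and limma-voom 2 and 0. For 36 of the 198 members DESeq2 gave no adjusted p value. At an unadjusted p value under 0.05 edgeR had 8 members higher with HOW(S)-HA and 5 lower, where 6.44% and 3.20% of all transcripts were. DESeq2 had 3 and 2 members, against 475 and 124 of all 12694 transcripts. With limma-voom these were 8 and 4 members, against 828 and 402 of all transcripts. The median log2(fold change) between inputs was 0.00 for members and 0.01 for all transcripts, with a median SE of 0.23 for members. In whole testes, fewer cells that express a transcript and less RNA of it per cell cannot be told apart.

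Within each line the fit across all transcripts restates the ratios that chose the members and is given as a description. With HOW(S)-HA, 3.21% of 12618 transcripts had a log2(fold change) of pull-down over input of at least 1 and an FDR-corrected p value of at most 0.05, and 195 of the 203 members tested were among them. The other 106 members did not pass the filter for low counts, which took all libraries as one group. On the same counts 298 members passed with input and pull-down as separate groups. With Salmon's estimated reads and one group, 309 passed. Between the nanos-GAL4 libraries edgeR's exact test, which compares 2 libraries and not conditions, called 3.70% of 15180 transcripts and 198 of the 243 members tested. The number of members called with HOW(S)-HA depended strongly on the filter for low counts and on single pairs. With a filter that treats input and pull-down as separate groups it was 0 of 298, and all 298 then had an unadjusted p value under 0.05. That fit called 0 of all 16878 transcripts, of which 2188 were higher and 1802 lower at an unadjusted p value under 0.05, so its loss of calls was not particular to the members. Without HOW(S)-HA pair 2 it was 4, of 5 enriched among all 12891 transcripts tested, and without pair 3 it was 57, of 66 among 12927.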

How the data were processed

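The authors sequenced rRNA-depleted, stranded libraries as 75-nt single-end reads, removed adaptors and any rRNA or tRNA reads, and quantified FlyBase Release 6 transcripts with Salmon 0.14.2. The deposited files give, per transcript and library, a TPM value, an estimated count of reads, the annotated length in nt and an effective length that is equal in all libraries. The estimated counts, as deposited, are Salmon's and are not normalised, and TPM is relative to each library's total.

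From these the centred ratios were computed as described above. For the fits, scaledTPM (TPM times total estimated counts over total TPM) was rounded to whole numbers, passed through the filterByExpr function (edgeR 4.0.16, R 4.3.3) with all libraries as one group, scaled by TMM and tested by the quasi-likelihood F-test with pair as a block, with Benjamini-Hochberg adjustment. The nanos-GAL4 pair used edgeR's exact test with its dispersion set to the common value from the other line. DESeq2 1.42.0, limma 3.58.1, and other thresholds, filters, centrings, pseudocounts and left-out replicates were alternatives. Input and pull-down of one number come from one lysate per the methods. Their deviations from the group means correlated at -0.01, 0.08 and -0.01. The code of the fit was also run on simulated counts, which does not show how the fit performs on these libraries. Replicates differed far beyond counting noise (chi-square per degree of freedom 18.5 to 75.1) and were kept separate.

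Described transcripts were the 10 most retained, the 8 most abundant, the 4 largest differences in each direction, the 3 longest and shortest, and 3 on each side of the threshold, of which a few are given. At most 2 unnamed identifiers are printed. Of 30070 rows, 54 have a name in the sources used here, none of them a member. Gene lists, cell type markers and sequences were therefore not analysed here. The members, lists, tests and the filter were chosen with earlier results of these data known.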

Additional observations from a re-analysis of the deposited data

How the results depend on the processing

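The number of retained transcripts was 961 at a threshold of 0.5, 114 at 1.5 and 60 among transcripts with whole reads. It was between 342 and 525 when 1 HOW(S)-HA replicate was left out, the highest without replicate 3. Of the 525, 309 are the members, and without the nanos-GAL4 pair 307 of 371 were members. The median length was 3567 nt at a threshold of 0.5, 3321 nt with a minimum of 10 reads, 3566 nt with no limit on length, 2923 nt with a pseudocount of 0.1 TPM, 2009 nt with whole reads and 3258 to 3644 nt without 1 replicate. It stayed above that of the eligible transcripts in each of these. The median input level was 1.59 and 2.48 TPM at thresholds of 0.5 and 1.5, and 1.09 and 3.79 TPM with minimums of 10 and 50 reads. It was 1.47 TPM with no limit on length, 3.38 TPM with the pseudocount and 0.964 to 1.57 TPM without 1 replicate. The median ratio with HOW(S)-HA was 1.21 and 2.32 at thresholds of 0.5 and 1.5, and without it 1.27 and 2.43. The median difference between lines turned from -0.13 to 0.077 without replicate 3 and ranged from -0.18 to 0.077 over the replicates left out. Divided by the SD of each pair, it was -0.19.

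Members called in the HOW(S)-HA fit fell from 195, of 405 enriched among all transcripts, to 0 with filter groups and to 0 with no filter but a count above 0, where 0 of all 16878 and 0 of all 26906 transcripts were called. They were 4 to 176 without 1 replicate (4 of 5 called without replicate 2, 57 of 66 without replicate 3 and 176 of 338 without replicate 1). The cause was not tested. In the nanos-GAL4 pair 99 were called at 2 times the dispersion and 18 with the dispersion of the fit with filter groups, of 167 and 30 enriched among all 15180. With the filter groups applied to that pair itself, 1955 of 18982 transcripts and 241 members were called, against 561 and 198. Library totals in place of TMM moved the median log2(fold change) of all transcripts with HOW(S)-HA from 0.02 to 0.66 and called 3059 transcripts and 203 members. Without the replicate block, 196 members were called, of 493 enriched among all 12618 transcripts tested. Over the alternatives the median interaction among members ranged from -0.27 without replicate 1 to -0.04 without replicate 3. Among all transcripts it was -0.03 and -0.0007 in these 2 fits. With library totals, the median log2(fold change) between inputs was -0.39 for members and -0.38 for all transcripts. The whole-read, SD and nanos-GAL4 filter settings were chosen after seeing the data. Precision is limited by the input depth, by reads shared between isoforms and by the single nanos-GAL4 pair.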
